A study of Homo sapiens with 9 samples.

Results

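MIR548 is a large family of human microRNA genes, and 40 of its members were measured here among 14884 named genes. Members were all genes whose symbol in the platform's probe annotation starts with MIR548, each represented by the probeset with the highest mean over the 9 arrays. The 40 genes had 54 probesets between them, and the RefSeq table (GRCh38.p14) lists 73 MIR548 microRNA genes. All 9 arrays held RNA of SMS-KCNR, a long-established line of human neuroblastoma cells (a tumour of the sympathetic nervous lineage), with 3 arrays for each of 3 treatments. Cells received the solvent DMSO, 5 µM simvastatin, or both 5 µM simvastatin and 2 mM mevalonate, and all were collected at 30 hours. Below, "mevalonate arrays" and "mevalonate against DMSO" refer to the group given both compounds. No group received mevalonate without simvastatin. An effect of mevalonate by itself and one that needs simvastatin therefore cannot be told apart. All 3 groups grew in the same serum-containing medium and share this 1 cell line, so they represent a single tumour's genotype. The labels call the samples independent without naming separate cultures or days. The p-values below set a difference between groups against the spread of these samples, which may be partly or only technical.

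MicroRNAs are short RNAs that pair with messenger RNAs, mainly through a seed at their 5′ end, and lower the output of the paired message. They are cut from hairpin precursors, and many hairpins lie inside other genes. MIR548 hairpins derive from Made1, a small palindromic transposable element whose copies lie on many chromosomes and fold back on themselves. Simvastatin blocks the enzyme that makes mevalonate, the precursor of cholesterol and of the lipid anchors of prenylated proteins, and added mevalonate supplies the missing product.

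Mature sequences show how alike the members are. A mature sequence was found in RefSeq's microRNA table (GRCh38.p14) for 28 of the 40 genes, as 28 distinct sequences with 19 different seeds. No sequence was found there for MIR548H1, MIR548H3, MIR548I1 or MIR548V, whose changes are described below. The seed is bases 2 to 8 and is printed in capitals. The 6 genes that share the most widespread seed among the members are shown first, followed by the 4 distinct sequences with the next most shared seed, and then by the sequences of MIR548C and MIR548L, which passed the test in 1 comparison.
hsa-miR-548ab: aAAAGUAAuuguggauuuugcu
hsa-miR-548ak: aAAAGUAAcugcgguuuuuga
hsa-miR-548b-5p: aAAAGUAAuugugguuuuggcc
hsa-miR-548j-5p: aAAAGUAAuugcggucuuuggu
hsa-miR-548w: aAAAGUAAcugcgguuuuugccu
hsa-miR-548y: aAAAGUAAucacuguuuuugcc
hsa-miR-548aj-3p: uAAAAACUgcaauuacuuuua
hsa-miR-548am-3p: cAAAAACUgcaguuacuuuugu
hsa-miR-548j-3p: cAAAAACUgcauuacuuuugc
hsa-miR-548x-3p: uAAAAACUgcaauuacuuuc
hsa-miR-548c-3p: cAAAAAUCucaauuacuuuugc
hsa-miR-548l: aAAAGUAUuugcggguuuuguc

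The 3p sequences shown end in a U-rich stretch that holds the reverse complement of the seed AAAGUAA. The 7 bases AAAGUAA occurred in 9 of the 28 member sequences (32.1%) and in 3 of 2299 other distinct human mature sequences (0.13%). Their reverse complement UUACUUU occurred in 8 member sequences (28.6%) and in 4 others (0.174%), so that 17 of 28 (60.7%) held at least 1 of the 2 motifs. Member sequences were poor in G and C, with a median of 34.9% against 52.2% in the others. Members with such similar sequences can share probes or hybridise to each other's transcripts, so a value is that of a probeset annotated to the gene. It does not give the amount of a mature microRNA arm.

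Deposited values were log2 intensities, and the median of all probesets over all arrays was 5.19. Most MIR548 probesets were dim. Of the 40, 23 lay below this overall median on all 9 arrays, 9 lay above it on all 9, and 8 fell on both sides. A mean above 5.19 was found for 13 members (32.5%), compared with 38.3% of 1032 other microRNA genes and 68.3% of all genes. The probesets always above the median were those of MIR548AA1, MIR548AL, MIR548AN, MIR548H2, MIR548K, MIR548L, MIR548O2, MIR548T and MIR548V. The 5 highest means belonged to MIR548AL (7.69), MIR548L (7.61), MIR548V (7.47), MIR548H2 (6.94) and MIR548AN (6.59). MIR548F1 (1.68), MIR548F3 (1.82) and MIR548O (1.99) had the lowest means, near the floor of the arrays. Since each probeset has its own brightness, this order does not rank the amounts of the transcripts.

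**Figure D1:**
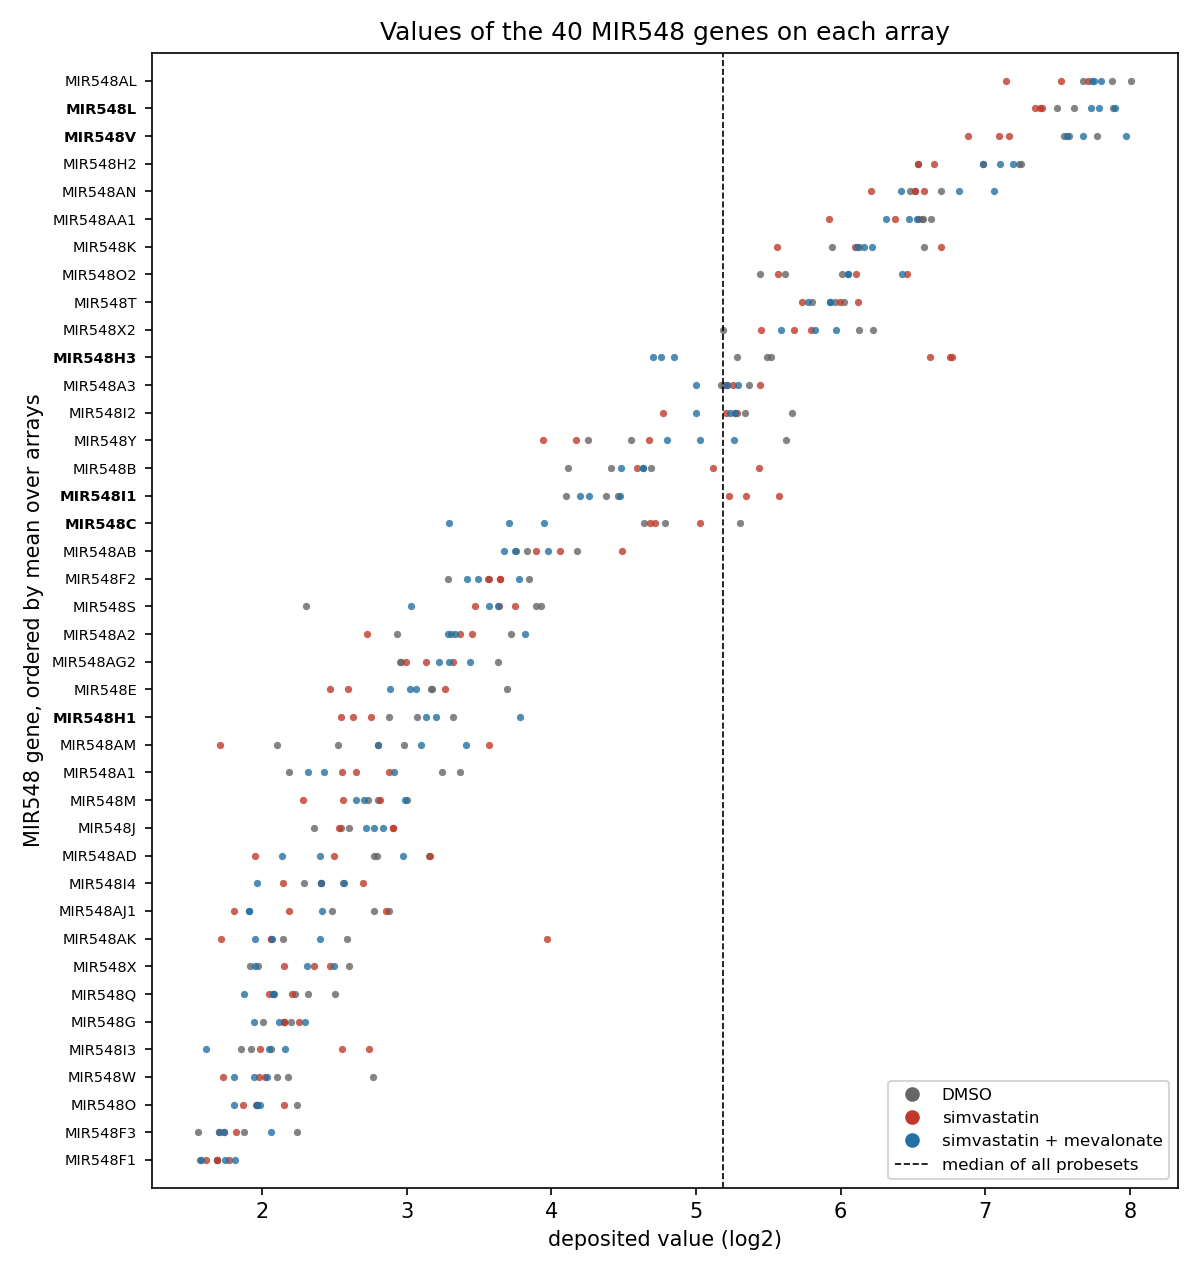
Deposited log2 value (x axis) of each of the 40 MIR548 genes (y axis, ordered by mean) on the 9 arrays, 1 point per array, coloured by treatment; the dashed line is the median of all probesets, 5.19. Bold names mark the 6 genes past the test's threshold in at least 1 comparison, and MIR548H3 is the gene whose 3 groups lie clearly apart, with simvastatin from 6.62 to 6.77.

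Replicates of the members were less tight than those of other genes. The within-group SD had a median of 0.244 for MIR548 genes, 0.182 for other microRNA genes and 0.0927 for all genes. It ran from 0.0927 for MIR548F1 to 0.733 for MIR548AK, whose first simvastatin array read 3.97 while its other 8 arrays read 1.71 to 2.58. Of the 16 members with a mean under 3, 0 passed the test in any comparison (5 reached an unadjusted p under 0.05), against 3 of 11 with a mean between 3 and 5.19 (MIR548C, MIR548H1 and MIR548I1) and 3 of 13 with a higher mean (MIR548H3, MIR548L and MIR548V). These counts come from limma, fitted over all 14884 genes, with a Benjamini-Hochberg adjusted p under 0.05 as the threshold for "rose", "fell" or "changed".

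To see what simvastatin did to the family, its arrays were compared with those of DMSO. MIR548H3 and MIR548I1 rose and MIR548V fell, while the rest of the 40 did not pass the threshold. The 3 called members (7.5%) compare with 13.4% of all genes and 4.36% of other microRNA genes. The 2 that rose stand beside 5.98% of all genes, and the 1 that fell beside 7.38%. At an unadjusted p under 0.05 there were 12 members. Of MIR1302, another microRNA family derived from a transposable element, 0 of 7 measured genes were called by limma and 1 had an unadjusted p under 0.05. Without the first DMSO array 5 members were called, adding MIR548L and MIR548X2, and without the first simvastatin array 6 were called, adding MIR548AL, MIR548B and MIR548I3; MIR548H3, MIR548I1 and MIR548V were called in both cases. Estimates lay above 0 for 16 members and below 0 for 24, with a median of -0.10 on the log2 scale, compared with 0.01 for other microRNA genes and for all genes. The median absolute change was 0.26 for members and 0.10 for all genes, and the median standard errors were 0.17 and 0.07.

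MIR548H3 was the member with the largest change, and it was singled out with its values already known. It read 5.49, 5.52 and 5.28 with DMSO, 6.77, 6.62 and 6.75 with simvastatin, and 4.70, 4.85 and 4.76 with simvastatin plus mevalonate. All simvastatin arrays lay above, and all mevalonate arrays below, every DMSO array, with no overlap between any of the groups. It rose by 1.28 ± 0.08 (SE, n = 3 per group) on the log2 scale with simvastatin, a 2.43-fold increase (limma, adjusted p = 2.7e-05). Of the 14884 genes, 7 had a more positive estimate. In RNA from bulk cells, a change per cell and a change in the share of cells holding a transcript cannot be told apart.

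MIR548I1 moved in the same direction. Its values were 4.10, 4.38 and 4.46 with DMSO, 5.23, 5.57 and 5.34 with simvastatin, and 4.47, 4.26 and 4.20 with simvastatin plus mevalonate. The simvastatin arrays lay above the other 6, which overlapped each other. The rise was 1.07 ± 0.12 (SE, n = 3 per group), or 2.10-fold (limma, adjusted p = 0.000724). The mean over its 4 probesets, which takes in a dim one at -0.25 ± 0.32, gave a smaller rise of 0.48 ± 0.12 (SE, limma adjusted p = 0.0284).

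MIR548V did the opposite, reading 7.55, 7.77 and 7.58 with DMSO, 7.17, 6.88 and 7.09 with simvastatin, and 7.97, 7.67 and 7.56 with simvastatin plus mevalonate. Its 3 simvastatin arrays were its lowest, and its DMSO and mevalonate arrays overlapped. It fell by 0.59 on the log2 scale (SE 0.12, n = 3 per group; limma, adjusted p = 0.0127).

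MIR548B had an estimate of 0.65 ± 0.21 (SE, limma adjusted p = 0.0862), larger in size than that of MIR548V, and did not pass. Its simvastatin arrays read 4.59, 5.12 and 5.44 and its DMSO arrays 4.69, 4.41 and 4.12, so that the first simvastatin array lay within the DMSO range. It was called when that array was left out (0.87 ± 0.17, adjusted p = 0.0158). In all, 8 members had simvastatin and DMSO arrays that did not overlap, compared with 28.6% of all genes. MIR548H3 and MIR548I1 were the ones higher with simvastatin (13.9% of all genes were), and MIR548AA1, MIR548H1, MIR548L, MIR548Q, MIR548V and MIR548W were lower (14.7% of all genes).

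**Figure D2:**
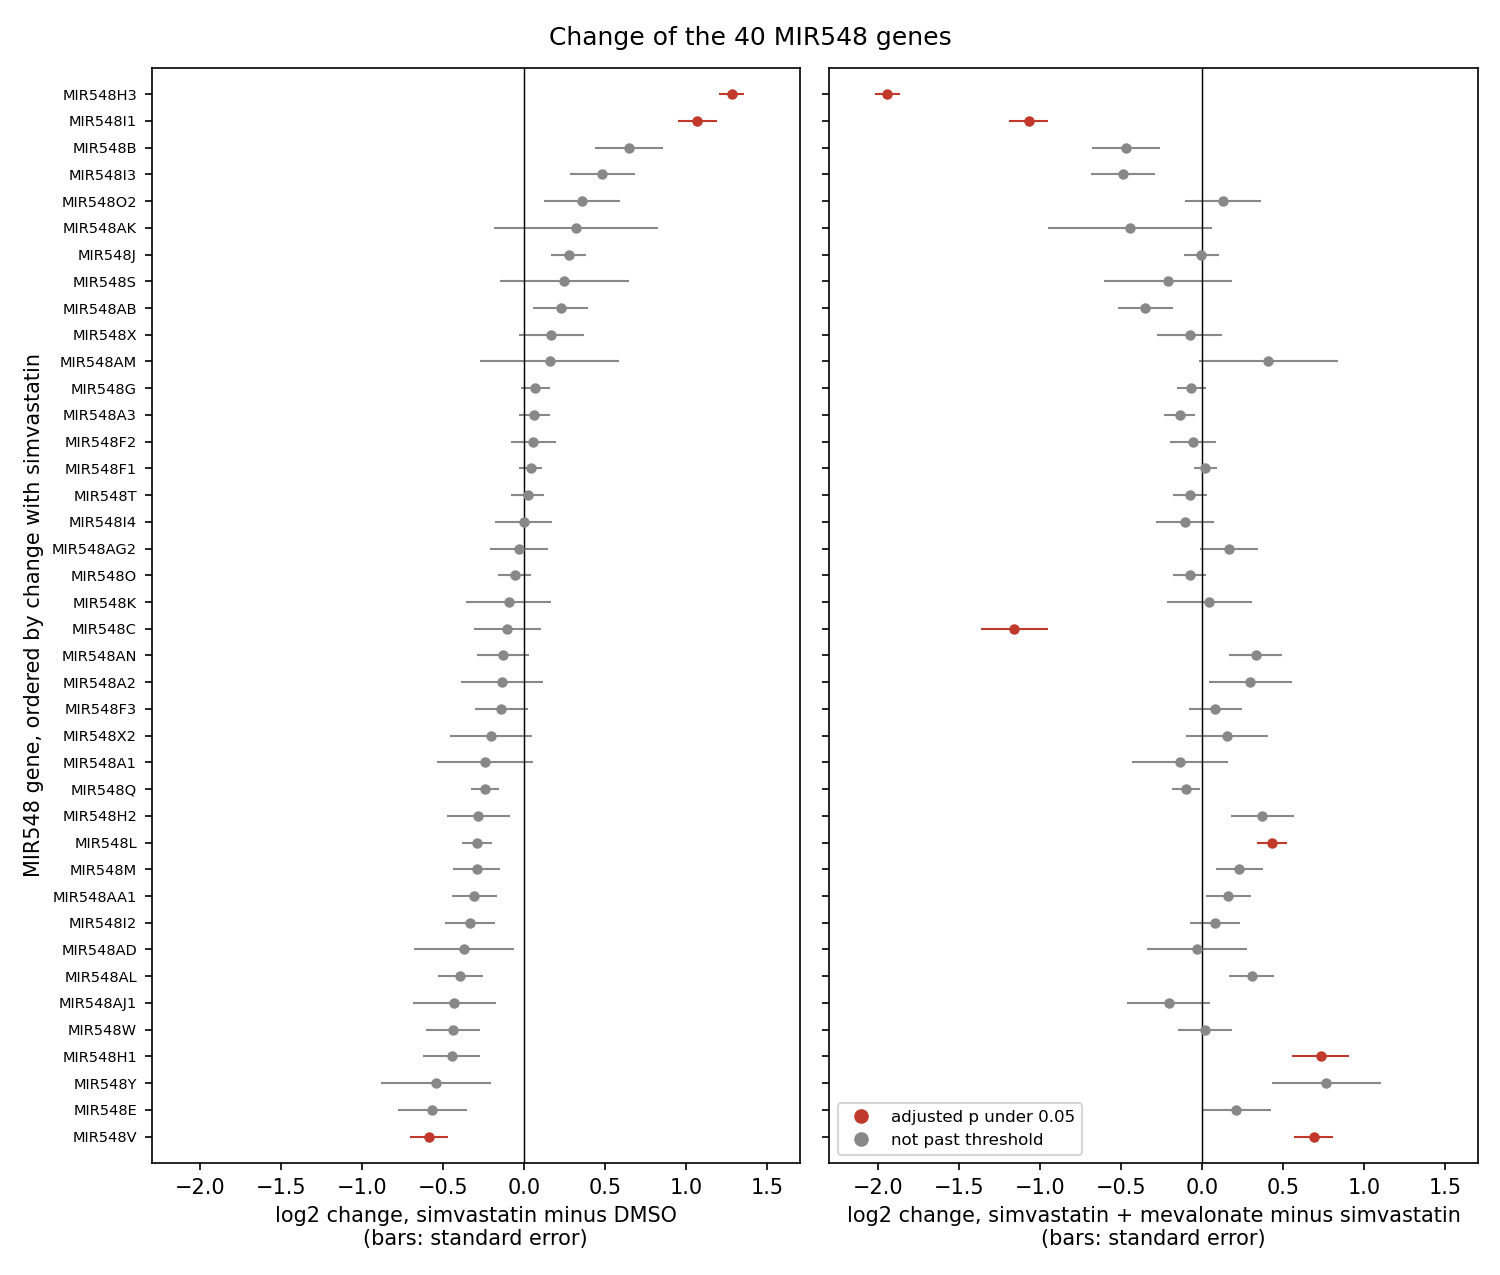
Log2 change (x axis, bars are limma's standard errors, n = 3 arrays per group) of the 40 MIR548 genes (y axis, ordered by the change with simvastatin) for simvastatin minus DMSO on the left and simvastatin plus mevalonate minus simvastatin on the right. Red points passed an adjusted p of 0.05, 3 on the left and 6 on the right; the simvastatin arrays enter both panels, so the panels are not independent.

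Mevalonate was then examined by comparing simvastatin plus mevalonate with simvastatin alone. MIR548H1, MIR548L and MIR548V rose, and MIR548C, MIR548H3 and MIR548I1 fell. These 6 members (15.0%) compare with 11.0% of all genes and 6.59% of other microRNA genes, and 7 members had an unadjusted p under 0.05. Of all genes 5.31% rose and 5.72% fell. The median change over members was 0.01, and 20 estimates lay on each side of 0. The groups did not overlap for 9 members, beside 27.3% of all genes. MIR548AL, MIR548H1, MIR548H2, MIR548L, MIR548V and MIR548Y were higher (13.6% of all genes were) and MIR548C, MIR548H3 and MIR548I1 lower (13.7% of all genes) with mevalonate. Among the 13 members with a mean above 5.19, tested on their own with the other genes of that brightness, 3 were called (MIR548H3, MIR548L and MIR548V).

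MIR548H3 fell by 1.94 on the log2 scale (SE 0.08, n = 3 per group), to a value 3.84-fold lower (limma, adjusted p = 1.26e-05). This was the lowest estimate of all 14884 genes in this comparison. MIR548I1 fell by 1.07 (SE 0.12, limma adjusted p = 0.000851), and MIR548V rose by 0.69 ± 0.12 (SE, limma adjusted p = 0.00689). Because the same simvastatin arrays stand on both sides, the opposite signs of these changes and of those against DMSO are not independent. The second and the third probeset of MIR548I1, which hold identical values, also passed (-0.50 ± 0.08, adjusted p = 0.00598 in a fit over all named probesets). The mean over its 4 probesets, which takes in a dim one with a mean of 2.73 and a change of 0.40 ± 0.32, gave -0.42 ± 0.12 (SE, limma adjusted p = 0.056).

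MIR548C changed when mevalonate was added to simvastatin but passed no threshold with simvastatin alone. It read 4.64, 5.30 and 4.79 with DMSO, 5.03, 4.68 and 4.71 with simvastatin, and 3.71, 3.95 and 3.29 with simvastatin plus mevalonate. The 3 mevalonate arrays lay below the other 6, whose ranges overlapped. Against simvastatin it fell by 1.16 on the log2 scale (SE 0.21, n = 3 per group), to a value 2.23-fold lower (limma, adjusted p = 0.0085), while simvastatin differed from DMSO by -0.10 ± 0.21 (adjusted p = 0.806). The gene's other probeset had a mean of 1.69, near the floor of the arrays, so the change rests on 1 probeset. MIR548H1, MIR548H3, MIR548L and MIR548V have 1 probeset each, so their changes rest on 1 probeset as well.

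MIR548H1 and MIR548L rose with mevalonate by smaller amounts. MIR548H1 read 2.88, 3.07 and 3.32 with DMSO, 2.75, 2.54 and 2.63 with simvastatin, and 3.20, 3.78 and 3.13 with simvastatin plus mevalonate, a rise of 0.73 ± 0.18 (SE, n = 3 per group; limma, adjusted p = 0.0307). MIR548L read 7.50, 7.61 and 7.88 with DMSO, 7.39, 7.38 and 7.35 with simvastatin, and 7.73, 7.90 and 7.79 with simvastatin plus mevalonate, a rise of 0.43 ± 0.09 (SE, limma adjusted p = 0.0186). In both, the simvastatin arrays were the lowest and did not overlap with either of the other groups. The differences from DMSO, -0.45 ± 0.18 for MIR548H1 (adjusted p = 0.149) and -0.29 ± 0.09 for MIR548L (adjusted p = 0.0777), did not pass. The MIR548H1 call was lost without the second DMSO array, the first mevalonate array or any 1 simvastatin array, with adjusted p from 0.0503 to 0.0935. The MIR548L call was lost without the second or the third mevalonate array or the second or the third simvastatin array (adjusted p from 0.0532 to 0.0687).

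**Figure D3:**
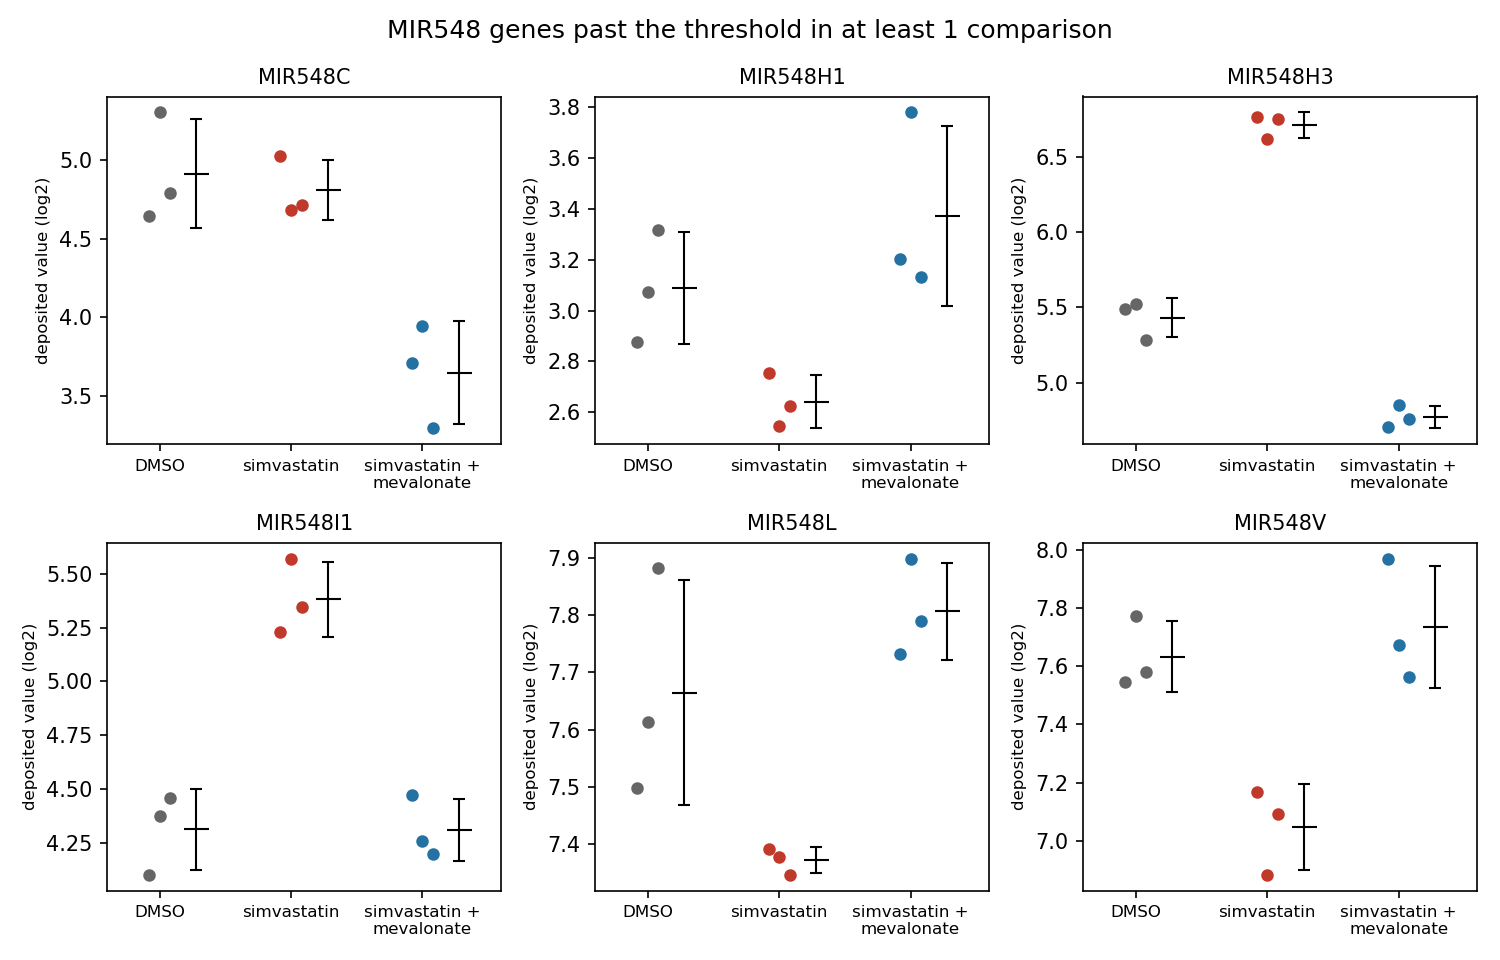
Deposited log2 values (y axis) of the 6 MIR548 genes past the threshold in at least 1 comparison, 1 panel per gene, with 3 arrays per treatment (x axis) as points and each group's mean ± SD as a bar beside them. MIR548H3 and MIR548I1 peak with simvastatin, MIR548H1, MIR548L and MIR548V are lowest there, and MIR548C is lowest with simvastatin plus mevalonate; the y axes differ between panels.

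The remaining comparison set simvastatin plus mevalonate against DMSO. MIR548H3 fell by 0.66 on the log2 scale (SE 0.08, n = 3 per group), to a value 1.58-fold lower (limma, adjusted p = 0.0255), and was the only member called. All genes gave 11 calls (0.0739%; 0.0336% higher and 0.0403% lower), with 1635 at an unadjusted p under 0.05. That count depended on the fit, with 105 calls among genes above the median of all probesets, 225 with a prior that follows intensity and 0 with only these 2 groups. In the fit of all 9 arrays, other microRNA genes gave 0 by limma, with 131 of 1032 at an unadjusted p under 0.05. Of the members, 6 reached that unadjusted level. The MIR548H3 call was lost when any 1 of the DMSO or mevalonate arrays, or the first or the third simvastatin array, was left out, with adjusted p from 0.0513 to 0.151 and estimates from -0.74 to -0.62. It was also lost when only these 2 groups were fitted (adjusted p = 0.111). MIR548C had the lowest estimate of all 14884 genes, -1.26 ± 0.21 (SE), without passing (limma, adjusted p = 0.0744).

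MIR548AJ1 had the next largest difference among the members, -0.64 ± 0.26 (SE, limma adjusted p = 0.413). It is dim, at 2.78, 2.49 and 2.88 with DMSO against 1.91, 1.91 and 2.42 with simvastatin plus mevalonate. Groups did not overlap for 10 members, beside 16.5% of all genes. MIR548J and MIR548O2 were higher than with DMSO, as were 7.24% of all genes, and MIR548AA1, MIR548AJ1, MIR548C, MIR548E, MIR548H3, MIR548I2, MIR548Q and MIR548W were lower. Those lower were 8 of 40, beside 9.22% of all genes.

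Copies of 1 microRNA, named by the same letter and a number, gave differing values. Of the MIR548H copies, MIR548H3 rose by 1.28 with simvastatin while MIR548H1 and MIR548H2 gave -0.45 and -0.28, and with mevalonate MIR548H3 fell as MIR548H1 rose. Of the MIR548I copies, MIR548I1 rose by 1.07, and MIR548I2 (-0.34 ± 0.15), MIR548I3 (0.48 ± 0.20) and MIR548I4 (-0.00 ± 0.18) did not pass. In the MIR548A, MIR548F, MIR548O and MIR548X groups 0 of 10 copies were called by limma in any comparison, 0 had an unadjusted p under 0.05, and simvastatin estimates ran from -0.24 for MIR548A1 to 0.36 for MIR548O2. The 6 genes whose mature sequence carries the seed AAAGUAA, printed above, had simvastatin estimates from -0.55 for MIR548Y to 0.65 for MIR548B, with 4 above 0, 0 called by limma and 3 at an unadjusted p under 0.05. The 5 with the seed AAAAACU ran from -0.43 for MIR548AJ1 to 0.28 for MIR548J, with 0 called by limma and 1 at an unadjusted p under 0.05.

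For MIR548I1 and MIR548I2 the choice of probeset mattered. MIR548I1 has 4 probesets, of which the second and the third held identical values, and MIR548I2 has 2. A probeset of MIR548I2 that was not the brightest, and so was not used above, read 4.13, 4.42 and 4.55 with DMSO, 5.27, 5.74 and 5.45 with simvastatin, and 4.50, 4.47 and 4.27 with simvastatin plus mevalonate. On each of the 9 arrays it differed by 0.02 to 0.21 from the probeset used for MIR548I1. Which of the copies these probesets read is uncertain, since probe sequences were not used here. The probeset used for MIR548I2 read 5.34, 5.27 and 5.66 with DMSO and 4.77, 5.21 and 5.29 with simvastatin, and these groups overlapped.

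**Figure D4:**
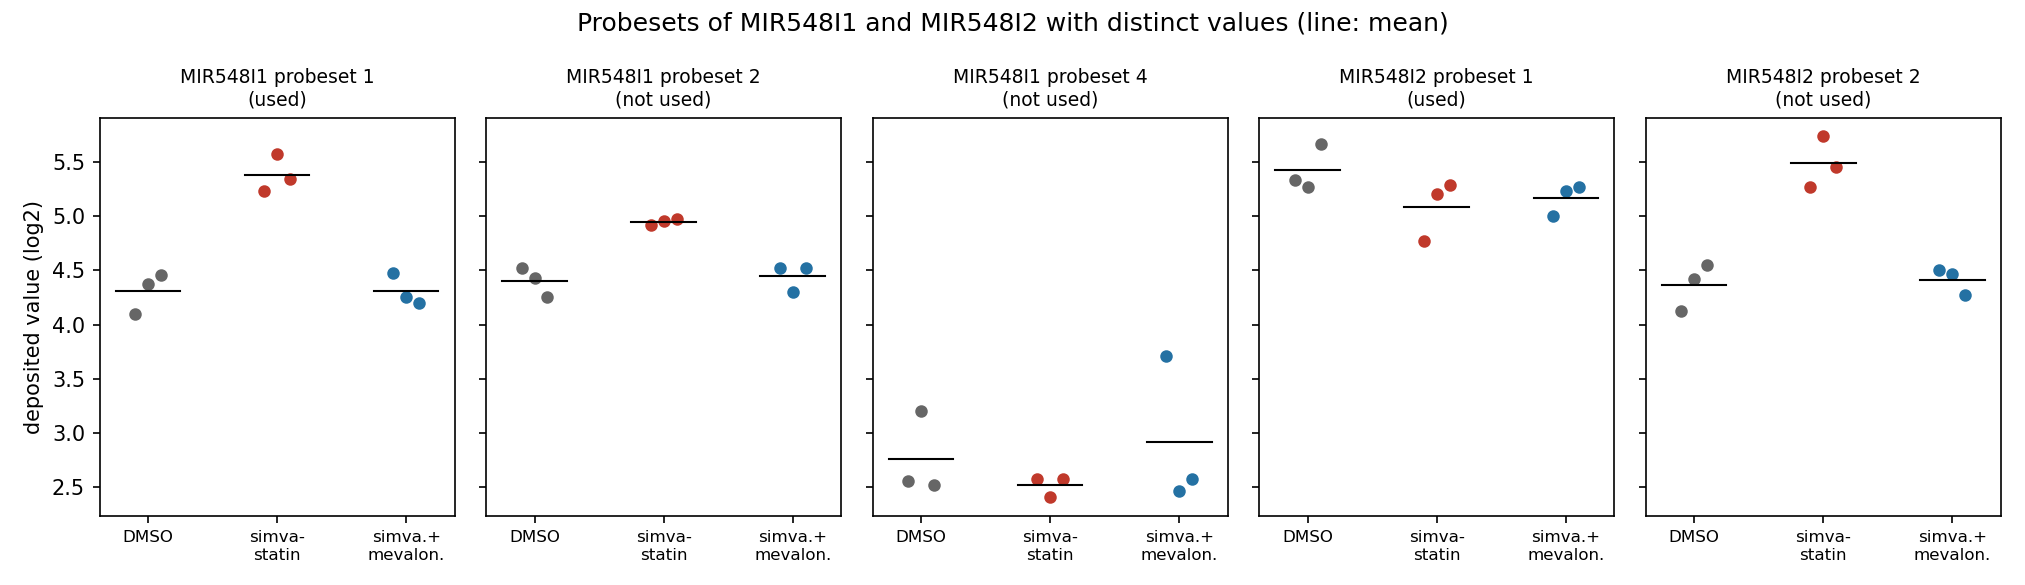
Deposited log2 values (y axis) of the probesets of MIR548I1 and MIR548I2 that hold distinct values, 1 panel per probeset, with 3 arrays per treatment (x axis; simva. + mevalon. is simvastatin plus mevalonate) and a line at each mean. The first probeset of MIR548I1 and the second of MIR548I2 show nearly the same 9 values, about 4.3 to 4.4 with DMSO and 5.4 to 5.5 with simvastatin on average, whereas the probeset used for MIR548I2 does not.

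Many MIR548 genes sit inside other genes, and those host genes were examined for the same changes. In the RefSeq table (GRCh38.p14), 26 of the 40 lie within the span of a gene that is no microRNA, and 17 of these hosts were measured. The hosts were brighter and tighter than the members, with 12 of 17 above the median of all probesets on all arrays and a median within-group SD of 0.075. The member runs on the same strand as its host in 11 of the 17 pairs and on the opposite strand in 3. The strand is not listed for the other 3, those of MIR548H3, MIR548V and MIR548AN. Whether a member lies in an intron or an exon was not examined. Which of the overlapping transcripts the member's probes read was not tested.

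With simvastatin 7 of the 17 hosts changed, 5 upward and 2 downward, beside 13.4% of all genes. Both members called in this set changed in the same direction as their host. Of the 5 pairs with a called host and a member that was not, 1 had estimates of the same sign, and over all 17 pairs 7 did. MIR548H3, on chromosome 17, lies within HS3ST3A1 (strand not listed), which encodes an enzyme that adds sulfate to heparan sulfate chains. HS3ST3A1 read 6.81, 6.80 and 6.80 with DMSO, 7.94, 7.98 and 7.68 with simvastatin, and 6.19, 6.32 and 6.12 with simvastatin plus mevalonate, with no overlap between groups. It rose by 1.06 ± 0.08 (SE, limma adjusted p = 0.000108) beside 1.28 for MIR548H3. It fell by 1.66 (SE 0.08, adjusted p = 1.6e-05) with mevalonate, beside 1.94 for MIR548H3. These were the lowest 2 estimates of all genes in that comparison. With simvastatin plus mevalonate, HS3ST3A1 stood at -0.59 ± 0.08 against DMSO and did not pass (limma, adjusted p = 0.0587).

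MIR548V lies within MTUS1 (strand not listed), which encodes a microtubule-associated protein. MTUS1 read 7.52, 7.57 and 7.60 with DMSO, 7.05, 7.11 and 7.01 with simvastatin, and 7.49, 7.57 and 7.50 with simvastatin plus mevalonate. As for MIR548V, the simvastatin arrays were the lowest, with no overlap. The host fell by 0.51 (SE 0.05, limma adjusted p = 0.000207) and rose by 0.46 ± 0.05 with mevalonate (adjusted p = 0.000422), beside changes of -0.59 and 0.69 for MIR548V.

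RASSF3, a member of the Ras-association domain family, contains MIR548C on the same strand. It read 7.19, 7.30 and 7.23 with DMSO, 7.56, 7.97 and 7.79 with simvastatin, and 7.08, 6.95 and 7.23 with simvastatin plus mevalonate. The host and the microRNA gene fell together with mevalonate (-0.69 ± 0.11, limma adjusted p = 0.00438, and -1.16 ± 0.21), but RASSF3 rose with simvastatin by 0.53 ± 0.11 (adjusted p = 0.0129) where MIR548C gave -0.10 ± 0.21. For simvastatin plus mevalonate against DMSO, RASSF3 gave -0.16 ± 0.11 beside -1.26 ± 0.21 for MIR548C, and neither passed.

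The other changed hosts had no such partner. LPIN1, a phosphatidate phosphatase of lipid synthesis that contains MIR548S, rose by 0.39 ± 0.06 with simvastatin (limma adjusted p = 0.0039) and fell by 0.56 with mevalonate (adjusted p = 0.000719). MIR548S gave 0.25 ± 0.40 and -0.21 ± 0.40, and its first DMSO array, at 2.30, lay far below the other two, at 3.92 and 3.89. PRKRIP1 (0.31 ± 0.04) and CAMK1D, a calmodulin-dependent kinase (0.30 ± 0.06), also rose with simvastatin. Their members, MIR548O (-0.06 ± 0.10) and MIR548Q (-0.24 ± 0.09), lie on the opposite strand and did not pass. CTPS2, a CTP synthase that contains MIR548AM, was the remaining changed host (-0.20 ± 0.05) and is named after its values were seen.

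With mevalonate, 7 hosts changed, 2 upward and 5 downward, beside 11.0% of all genes. In 3 pairs both genes were called, and the directions agreed in each (MIR548H3, MIR548V and MIR548C). Estimates had the same sign in 12 of the 17 pairs, among them the 4 with a called host and a member that was not. MIR548L was called while its host was not. That host is MRE11, a nuclease of DNA double-strand break repair, which read from 8.96 to 9.02 with DMSO, from 9.09 to 9.12 with simvastatin and from 8.95 to 9.07 with simvastatin plus mevalonate. Its change of -0.12 ± 0.04 (limma adjusted p = 0.151) had the opposite sign to the 0.43 of MIR548L. MIR548H1 and MIR548I1 had no measured host. PCDH15 around MIR548F1, TMEM232 around MIR548F3 and RADX around MIR548AN gave 0.08, -0.25 and 0.07 with simvastatin and were not called in any comparison. In the comparison of simvastatin plus mevalonate with DMSO, 0 of 17 hosts were called by limma, 3 had an unadjusted p under 0.05, and 10 pairs had estimates of the same sign.

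**Figure D5:**
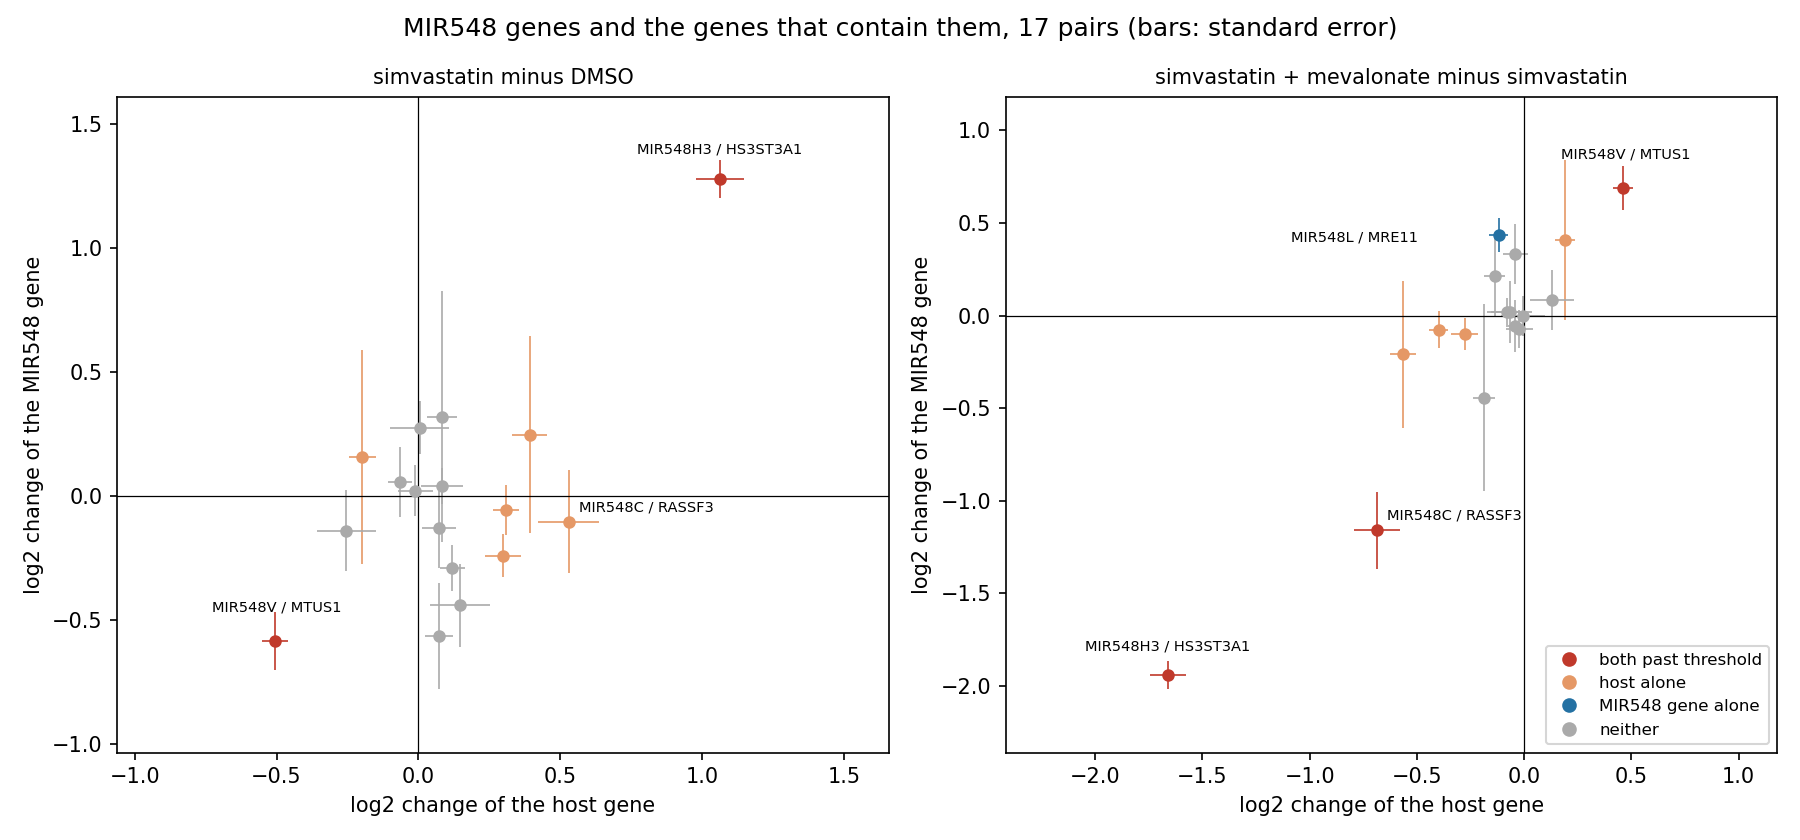
Log2 change of the host gene (x axis) against that of the MIR548 gene inside it (y axis) for 17 pairs, with limma's standard errors as bars (n = 3 arrays per group), for simvastatin minus DMSO on the left and simvastatin plus mevalonate minus simvastatin on the right. The pairs in which both genes passed the threshold (2 on the left, 3 on the right) lie in the quadrants where both signs agree; MIR548H3 and HS3ST3A1 lie farthest out in both panels.

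Genes of microRNA production and action were examined from a list of 30, of which 16 were measured and the rest are not analysed here. With simvastatin 5 of 16 changed, beside 13.4% of all genes, and 8 had an unadjusted p under 0.05. Among genes above the median of all probesets, fitted on their own, 6 of 15 pathway genes and 2350 of all 10164 genes were called. LIN28B, which blocks the maturation of let-7 microRNAs, fell by 0.78 (SE 0.04, limma adjusted p = 2.34e-05). Its values were 8.30, 8.30 and 8.35 with DMSO, 7.55, 7.50 and 7.55 with simvastatin, and 8.05, 8.14 and 8.04 with simvastatin plus mevalonate, with no overlap. The decapping enzyme DCP2 (-0.25 ± 0.05) and the cap-binding protein NCBP3 (-0.25 ± 0.06) also fell. XPO5, the exporter of precursor hairpins (0.19 ± 0.04), and DGCR8, the RNA-binding partner of the nuclease that cuts them out (0.18 ± 0.05), rose. Without the first or the third DMSO array, the first or second mevalonate array, or the second or the third simvastatin array, 3 were called (DCP2, LIN28B and XPO5).

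With mevalonate, 2 of the 16 changed, beside 11.0% of all genes. LIN28B rose by 0.54 ± 0.04 (limma adjusted p = 0.000156), and ZSWIM8, which takes part in the decay of microRNAs bound to certain targets, fell by 0.24 (SE 0.06, adjusted p = 0.0258). Without the first or the third mevalonate array, or the second or the third simvastatin array, LIN28B alone was called. Against DMSO, simvastatin plus mevalonate gave 0 calls among the 16 by limma, with 5 at an unadjusted p under 0.05.

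Arrays of a group correlated at r from 0.994 to 0.996 across genes, and array medians over the 40 members ran from 3.37 to 3.64 without setting any array apart. HMGCS1, an enzyme of the mevalonate pathway, rose by 1.66 with simvastatin and fell by 1.06 with mevalonate. With simvastatin plus mevalonate it was still 0.60 ± 0.05 above DMSO (SE, limma adjusted p = 0.0129). Of 8 sympathetic markers 7 were measured, all far above the median of all probesets. The mean over the 7 ran from 10.13 to 10.15 with DMSO, 9.69 to 9.70 with simvastatin and 10.07 to 10.13 with mevalonate added, and 5 fell with simvastatin. Glial markers (3 of 5 measured) had means from 5.37 to 5.66 with 0 called by limma and 1 at an unadjusted p under 0.05 (SOX10, mevalonate against DMSO), and both measured blood and endothelial markers averaged 5.45 to 6.04, with CD68 higher with simvastatin. The 2 measured mesenchymal markers, LUM and DCN, averaged 7.18 to 7.35 with DMSO, 6.10 to 6.30 with simvastatin and 6.82 to 6.86 with mevalonate. Both fell with simvastatin and rose with mevalonate. The part of these shifts in the MIR548 values was not tested.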

How the data were processed

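Total RNA of 9 samples of SMS-KCNR was measured on one-channel Affymetrix whole-transcript arrays. The authors deposited 1 log2 value per probeset and array, a scale read from the values. Per the submitters' processing notes, GCRMA and HOMER were used, with no version or role given, and background and normalization settings and the genome build are not given in the sources used here. Normalization between arrays hides a shift of all genes, and background correction compresses dim probesets. Of 53617 probesets, 16098 carried 1 gene symbol and gave 14884 genes (the brightest probeset per gene).

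Differences were fitted with limma 3.58.1 (R 4.3.3, lmFit and eBayes) over all genes and all 9 arrays with 3 group means (6 residual degrees of freedom), adjusted by Benjamini-Hochberg within each comparison, and the procedure was tested on simulated data. Errors of changes are limma's standard errors, and folds are 2 raised to a change. The number of arrays limits the precision.

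Members, gene lists and rules were chosen with earlier results of these data known. Named members are those called, the 3 largest changes per comparison, the 5 highest and 3 lowest means, and MIR548H3. Named hosts are theirs and up to 6 called hosts per comparison, and named pathway genes are those called. Other members are named where a count includes them. Samples with the same replicate number did not deviate together (correlations from -0.0806 to 0.0505 over 9 pairs, 0 above 0.1), so no pairing was used. Alternatives were quantile normalization, the mean over a gene's probesets, genes above the median of all probesets, a prior with an intensity trend, only the 2 groups compared, the replicate block, and leaving out each array.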

Additional observations from a re-analysis of the deposited data

Results flagged for a closer look

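A pair of probesets outside the main comparisons, which used 1 probeset per gene, carried a signal above the DMSO arrays. The second probeset of MIR548I1, whose 9 values are identical to those of the third, read 4.52, 4.43 and 4.25 with DMSO and 4.92, 4.96 and 4.97 with simvastatin, a change of 0.55 ± 0.08 (SE, limma adjusted p = 0.0032 over all named probesets). The second probeset of MIR548I2 changed by 1.12 ± 0.14 (adjusted p = 0.00127), while the brighter probeset used for that gene gave -0.34 ± 0.15 (adjusted p = 0.225). With simvastatin plus mevalonate they differed from simvastatin by -0.50 ± 0.08 and -1.07 ± 0.14.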

How the results depend on the processing

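Of 326 recomputed values of the named MIR548 genes and hosts past the threshold, 299 kept direction and call, 27 lost the call and 0 changed direction. The calls lost were those of MIR548H1, MIR548L, MIR548I1 and CAMK1D with mevalonate against simvastatin and of MIR548H3 with mevalonate against DMSO. Among pathway genes, DGCR8 and NCBP3 lost their calls with simvastatin in the fit of 2 groups and without any 1 of 8 and any 1 of 7 of the 9 arrays, NCBP3 also with the replicate block, and ZSWIM8 lost its call for mevalonate against simvastatin with the block and without any 1 of 5 arrays. Of values not past the threshold, 12 passed it under an alternative, among them MIR548B (0.65) and MIR548L (-0.29) with simvastatin and MIR548C (-1.26) against DMSO under the intensity trend. The cause was not tested. Counts of called members for simvastatin against DMSO were 3, 5 with the intensity trend and 3 to 6 without 1 array. For mevalonate against simvastatin they were 6, 3 among genes above the median of all probesets (13 members tested), and 4 to 7 without 1 array. For simvastatin plus mevalonate against DMSO they were 1, 2 with the trend (MIR548C added), 0 with only the 2 groups, and 0 to 1 without 1 array. Pathway genes called were 5 with simvastatin (8 with the trend, 3 with only the 2 groups, 3 to 5 without 1 array), 2 for mevalonate against simvastatin (5 with the trend, 1 to 2 without 1 array) and 0 for mevalonate against DMSO (1 among genes above the median, 2 with the trend, 0 to 0 without 1 array). With the replicate block, although the numbers do not pair the samples, called members were 3, 6 and 0, where MIR548AB replaced MIR548H1 among the 6, and called pathway genes for mevalonate against simvastatin were 1. Over all genes, mevalonate against DMSO gave 11 calls, 105 above the median, 225 with the trend, 0 with the 2 groups or the block, and 0 to 12 without 1 array.

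Estimates that changed sign were all of genes not called in the comparison concerned. For simvastatin against DMSO these were MIR548C (0.0091 with the mean over probesets, -0.24 to 0.092 without 1 array), MIR548O (-0.14 to 0.0359 without 1 array) and MIR548S (-0.29 to 0.52 without 1 array, negative without the first DMSO array). For mevalonate against simvastatin it was MIR548O (-0.14 to 0.0018 without 1 array), and for mevalonate against DMSO MIR548I1 (0.061 with the mean over probesets, -0.11 to 0.0711 without 1 array) and MIR548V (-0.0143 to 0.19 without 1 array). Members below the median of all probesets have no value under that filter.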
